A study of Mus musculus with 18 samples.

Results

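Basal stem cells (BSCs) of the mouse trachea were compared with alveolar epithelial cells of the mouse lung for genes of metabolism, adhesion, secretion, signalling and transcription. The libraries were chosen by their labels, and the comparison uses 6 of the 18 RNA-seq libraries of the series, namely 3 of BSCs and 3 of alveolar cells. BSCs were sorted from the tracheas of mice 1 to 3 as NGFR-positive cells. Alveolar cells were sorted from the lungs of mice 4 to 6 as EpCAM-positive cells with low CD104 (the β4 integrin subunit), after CD45- and CD31-positive cells had been gated out. All mice were untreated C57BL/6 males aged 8 to 12 weeks. Tracheal epithelium was freed with dispase and trypsin, whereas lungs were digested with collagenase. Organ, animal, gate and tissue digestion therefore change together with the cell type, and their parts in a difference cannot be told apart. The other populations, used below only for reference, were the NGFR-negative (non-basal) tracheal cells of mice 1 to 3 and the CD24hi airway, CD24lo airway and EpCAM-negative cells of mice 4 to 6.

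BSCs sit on the basement membrane of the pseudostratified airway epithelium, to which they are anchored by hemidesmosomes, and they renew the secretory and ciliated cells above them. The alveolar epithelium is made of flat type 1 cells, across which gas is exchanged, and cuboidal type 2 cells. Type 2 cells make surfactant, a film of phospholipid, cholesterol and specific proteins that lowers surface tension. They assemble it in lamellar bodies, which are organelles related to lysosomes, and release it by exocytosis.

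The 3 BSC libraries held 29317215 to 31028030 counted reads and the 3 alveolar libraries 11241139 to 12626769, so transcripts of low abundance were counted with less error in BSCs. Levels are given as RPKM, which are read counts corrected for gene length and for library size after TMM scaling. Fold changes are the BSC level over the alveolar level on the log2 scale, given with their standard error, and p-values are those of edgeR's quasi-likelihood test after Benjamini-Hochberg adjustment over 17989 genes. The threshold was an adjusted p under 0.05. It called 66.1% of all tested genes, 30.5% as higher and 35.6% as lower in BSCs, so that a list in which most genes were called is not unusual and the shares in each direction are to be read against these. Scaling by library size only gave 7924 higher and 4363 lower genes where TMM gave 5485 and 6410, and it shifted the median log2 fold change over all genes from -0.09 to 0.29. The median also depended on gene length, from -0.46 for the quintile of shortest genes to 0.25 for that of the longest. One library stood apart. Alveolar replicate 2 had 3.31% of its reads on a gene identifier without a symbol, against 0.104% and 0.0749% in the other alveolar libraries, and also the highest shares for *Lars2* and *mt-Rnr2*. Without it, 5086 genes were higher and 5892 lower. The 10 most abundant genes took 8.28% to 9.40% of the reads in BSC libraries and 26.0% to 27.0% in alveolar libraries, where *Sftpc* alone took 11.2% ± 0.65 (SD, n = 3).

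The defining transcripts followed both labels. *Krt5*, a keratin of basal cells, was at 1567, 1571 and 1478 RPKM in the BSC libraries and 0.121, 0.8403 and 0.323 RPKM in the alveolar libraries. *Sftpc*, the surfactant protein C gene of type 2 cells, was at 0.212, 0.137 and 0.0702 RPKM in the BSC libraries and 150136, 149929 and 168632 RPKM in the alveolar libraries. The groups did not overlap for either gene, as for 74.7% of all tested genes. The same holds for each gene below whose value is given in all 6 libraries, unless it is said to overlap. Of 10 basal cell markers, 9 were higher in BSCs and *Icam1* was not called, while all 10 type 2 cell markers were lower. Of 12 type 1 cell markers, 6 were lower and 4 higher, and these counts were exchanged with library size alone. *Ngfr*, *Itgb4*, *Epcam*, *Ptprc* and *Pecam1* encode the proteins used for sorting, and their levels are not results. The basal list includes *Ngfr*, and 8 of the other 9 markers were higher.

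**Figure D1:**
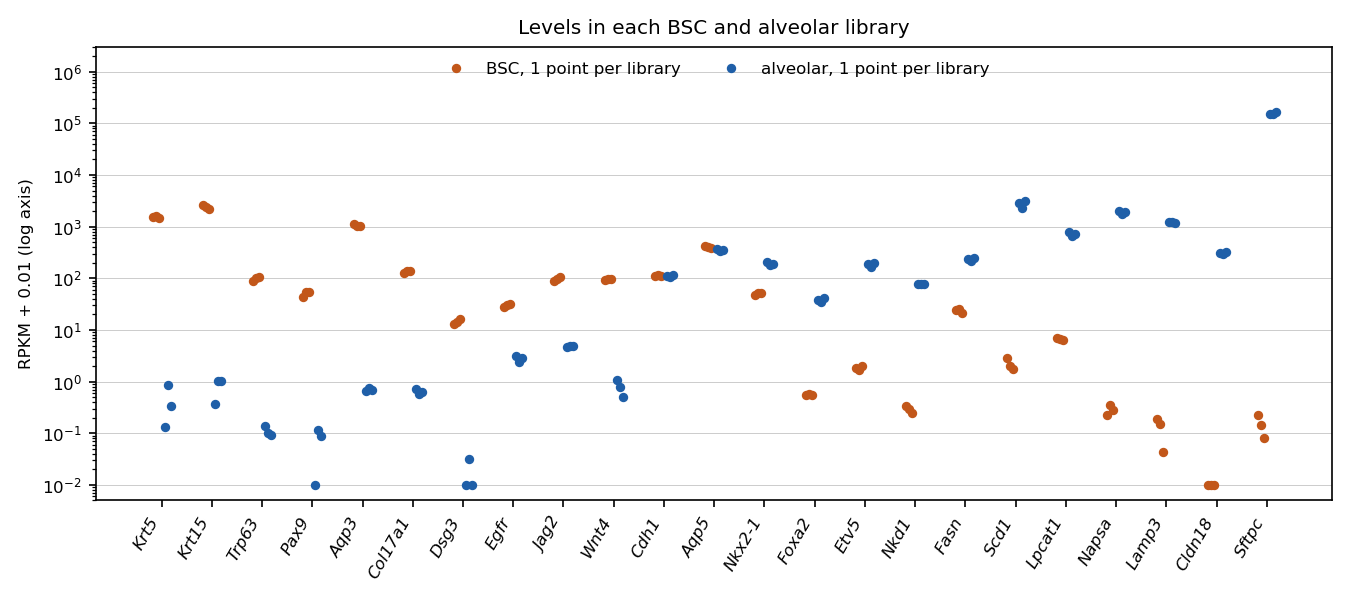
RPKM of 23 genes in each of the 6 libraries, on a log axis after adding 0.01, with BSC libraries in orange and alveolar libraries in blue. The 3 libraries of each population lie close together for most genes. *Cdh1* and *Aqp5* were at about the same level in both populations, whereas *Krt5* and *Sftpc* lay at opposite ends.

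Transcripts of other cells were also present on both sides. A list of 10 club and goblet cell genes summed to 25540 to 37090 RPKM in BSCs, above the 5672 to 6083 RPKM of the 10 basal markers, and to 9131 to 10170 RPKM in alveolar cells. Of these 10 genes, 7 were at higher levels in BSCs than in the alveolar population, and all 7 were higher still in the non-basal cells of the same tracheas. *Bpifa1*, an antimicrobial protein secreted by airway cells, was at 13551 ± 4159.5 RPKM (SD, n = 3) in BSCs, which was 9.91% of its non-basal level. In alveolar cells, the 10 endothelial markers summed to 171 to 245.1 RPKM and the 13 stromal markers to 161.8 to 248.5 RPKM. Much of the endothelial sum came from *Esam*, at a mean of 96.9 RPKM against 35.2 RPKM in EpCAM-negative cells. The other 9 endothelial markers were more abundant in EpCAM-negative than in alveolar cells. The same endothelial list summed to at most 0.833 RPKM in BSCs, where *Cdh5*, *Cldn5* and *Emcn* had no reads. The stromal list reached 159.9 to 162.9 RPKM in BSCs through *Dcn* alone, which was at 161 ± 1.67 RPKM (SD, n = 3). Leukocyte markers other than *Lyz2*, which type 2 cells express, summed to 19.2 to 23.6 RPKM in BSCs and 9.30 to 20.8 RPKM in alveolar cells. Over all genes, 38.6% of those lower in BSCs were more abundant in EpCAM-negative than in alveolar cells, and 29.8% of those higher were more abundant in non-basal cells than in BSCs. Where a list described below exceeded one of these shares, its count is given. The part of such cells in these results was not tested. In these bulk samples, fewer cells of a type and less RNA per cell cannot be told apart.

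**Figure D2:**
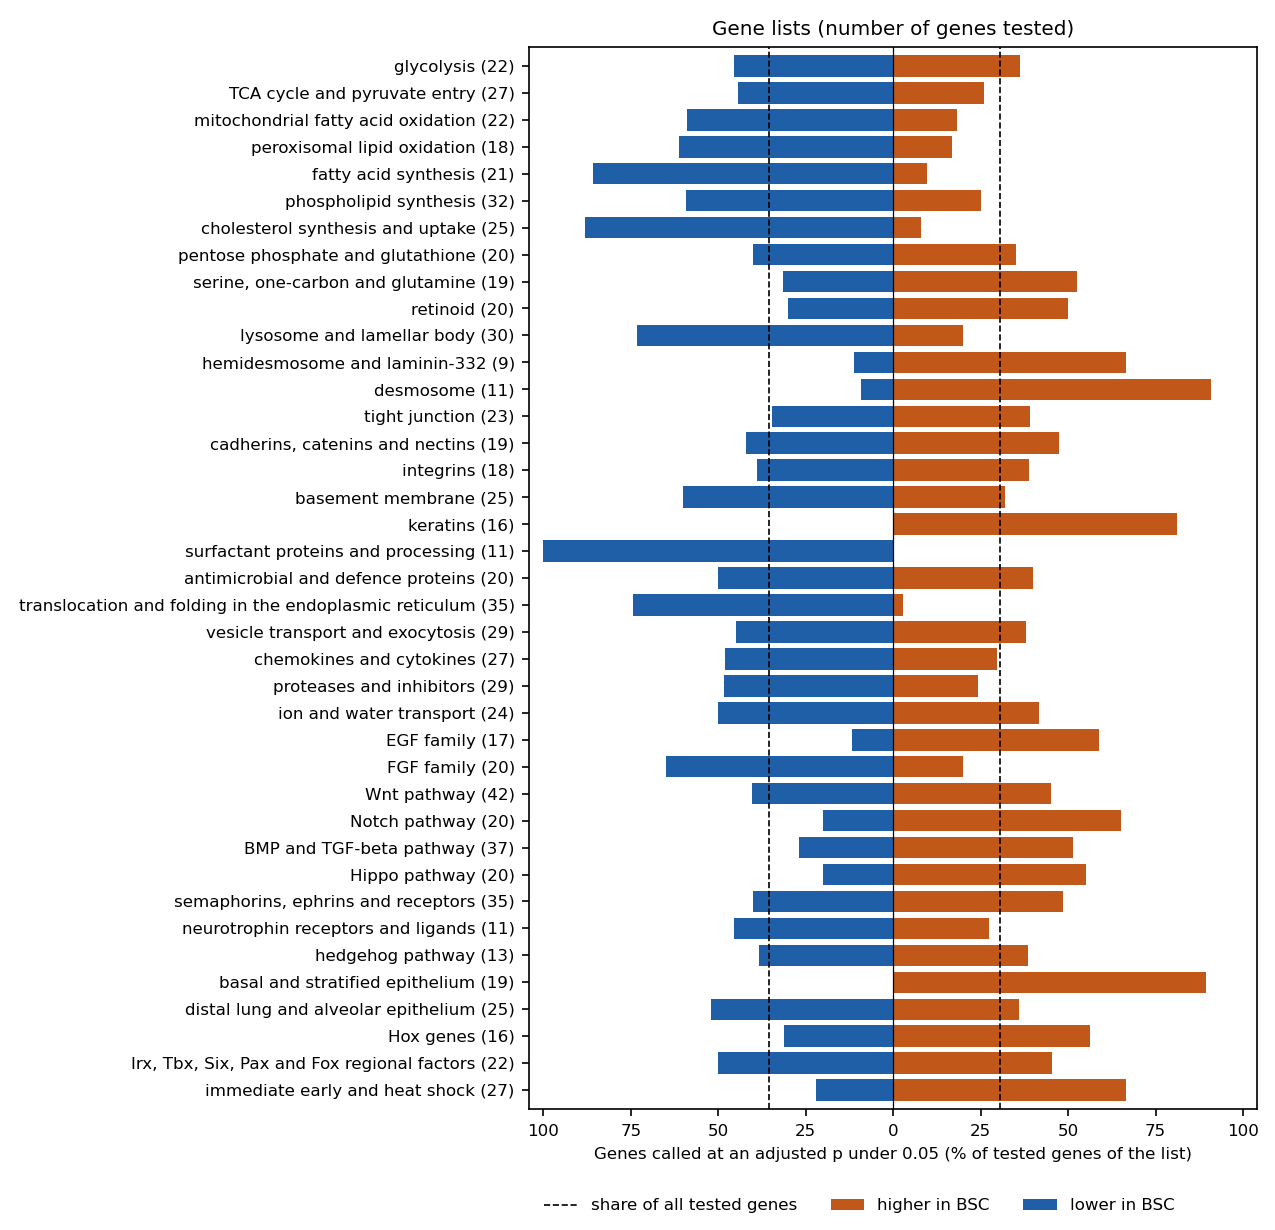
Share of the tested genes of each list that passed an adjusted p of 0.05 as higher (orange, to the right) or lower (blue, to the left) in BSCs. The number of genes tested is in parentheses, and dashed lines mark the 30.5% and 35.6% of all tested genes. Keratins, desmosome genes and basal transcription factors lie far to the right, and surfactant, cholesterol and fatty acid synthesis genes far to the left.

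Genes of lipid synthesis were more abundant in alveolar cells. Of 21 genes of fatty acid synthesis, 18 were lower in BSCs and 2 higher. Their median was -1.75 on the log2 scale, where all genes had -0.09. *Scd1*, the desaturase that makes oleate and palmitoleate, was at 2.82, 2.02 and 1.77 RPKM in the BSC libraries and 2903, 2264 and 3072 RPKM in the alveolar libraries. The lowest alveolar value was far above the highest BSC value (-10.28 ± 0.32, adjusted p = 1.69e-14). *Fasn*, the fatty acid synthase, was at 24.5, 25.3 and 21.7 RPKM in the BSC libraries and 233, 217 and 246 RPKM in the alveolar libraries, again without overlap (-3.28 ± 0.11, adjusted p = 6.45e-14). *Acly* and *Acaca*, which supply acetyl-CoA and malonyl-CoA for the synthase, were at 38.6 ± 0.748 against 186 ± 14.96 RPKM (SD, n = 3) and 3.66 ± 0.221 against 20.4 ± 1.81 RPKM. *Elovl1*, an elongase of saturated very long chain fatty acids, was at 38.8 ± 2.01 against 1134 ± 112 RPKM (-4.87 ± 0.17, adjusted p = 8.52e-14). The exceptions were other elongases. *Elovl6*, which extends palmitate, was at 7.14, 6.39 and 6.67 RPKM in the BSC libraries and 0.311, 0.108 and 0.1696 RPKM in the alveolar libraries (5.08 ± 0.24, adjusted p = 3.65e-12), and *Elovl4*, which makes the longest acyl chains, was at 2.68 ± 0.2604 RPKM in BSCs (ratio 131, 95% interval 36.2 to 1086, adjusted p = 3.55e-11). *Srebf1*, which activates fatty acid genes, differed by less than *Scd1* or *Fasn*, at 59.8 ± 6.37 against 99.9 ± 7.48 RPKM (-0.74 ± 0.13, adjusted p = 6.85e-05).

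The genes of cholesterol synthesis and uptake moved together. Of 25, 22 were lower in BSCs, all 22 by at least 2-fold (22.4% of all tested genes were lower by that margin, and 38.4% differed by it in either direction), 2 were higher and *Scap* was not called. Their median was -2.30. The lower genes spanned the pathway from the first steps, with *Hmgcs1* at 43.6 ± 3.98 against 91.9 ± 12.9 RPKM, to the closing of the sterol rings by *Lss* at 4.78 ± 0.3102 against 24.9 ± 4.71 RPKM and the demethylase *Cyp51* at 5.47 ± 0.266 against 29.5 ± 3.09 RPKM (SD, n = 3). *Insig1*, which holds the sterol sensor in the endoplasmic reticulum, was at 12.4, 10.2 and 9.202 RPKM in the BSC libraries and 152, 132 and 170.3 RPKM in the alveolar libraries (-3.84 ± 0.16, adjusted p = 6.34e-13). The groups did not overlap for any of these genes. With library size alone, 22 cholesterol genes and 16 fatty acid genes were lower. Non-basal cells had more of 1 of the 2 higher cholesterol genes. Only 1 and 2 of the lower genes were more abundant in EpCAM-negative cells.

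The promoters of these genes shared short sequences. The 250 bases upstream of the start were searched in RefSeq promoter windows (GRCm38.p6), which matched 18 of the 25 cholesterol genes, 18 of the 21 fatty acid genes and 13355 of the tested genes. The CCAAT box was present on either strand in 16 of 18 cholesterol genes, 12 of 18 fatty acid genes and 39.1% of matched tested genes, and in 33.8% of all 32851 windows. The GC box GGGCGG was present in 17 of 18 and 13 of 18 genes, against 57.9% of matched tested genes and 32.7% of all windows. The sterol response element letters TCACNCCAC were found in 1 gene of each list, against 1.3% of matched tested genes and 1.1% of all windows. The windows of 5 lower genes are shown to place the CCAAT boxes, which are in capitals as CCAAT or, on the opposite strand, ATTGG; in *Fasn* the boxes of both strands overlap. Each is written 5′ to 3′ on the strand of the gene.
Hmgcs1, chr13:119690101-119690350, plus strand: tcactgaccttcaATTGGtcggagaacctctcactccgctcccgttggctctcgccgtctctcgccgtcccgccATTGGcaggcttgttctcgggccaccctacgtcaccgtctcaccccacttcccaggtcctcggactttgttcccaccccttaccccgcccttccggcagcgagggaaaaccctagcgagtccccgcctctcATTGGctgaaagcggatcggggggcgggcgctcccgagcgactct
Insig1, chr5:28071162-28071411, plus strand: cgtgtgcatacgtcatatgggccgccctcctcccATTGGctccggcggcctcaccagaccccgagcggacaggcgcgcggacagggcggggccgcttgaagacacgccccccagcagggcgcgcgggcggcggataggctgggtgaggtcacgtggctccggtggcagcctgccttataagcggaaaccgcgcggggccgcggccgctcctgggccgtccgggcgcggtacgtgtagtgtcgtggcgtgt
Lss, chr10:76531355-76531604, plus strand: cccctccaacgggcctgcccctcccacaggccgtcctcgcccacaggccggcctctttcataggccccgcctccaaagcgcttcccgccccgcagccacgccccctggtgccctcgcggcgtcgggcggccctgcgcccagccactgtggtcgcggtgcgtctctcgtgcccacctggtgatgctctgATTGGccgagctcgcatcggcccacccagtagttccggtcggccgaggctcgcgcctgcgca
Cyp51, chr5:4104698-4104947, minus strand: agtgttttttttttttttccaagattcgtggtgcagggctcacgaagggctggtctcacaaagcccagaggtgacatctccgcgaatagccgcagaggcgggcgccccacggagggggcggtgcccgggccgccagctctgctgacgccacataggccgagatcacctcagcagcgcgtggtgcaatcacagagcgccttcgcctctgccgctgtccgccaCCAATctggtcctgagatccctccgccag
Fasn, chr11:120824548-120824797, minus strand: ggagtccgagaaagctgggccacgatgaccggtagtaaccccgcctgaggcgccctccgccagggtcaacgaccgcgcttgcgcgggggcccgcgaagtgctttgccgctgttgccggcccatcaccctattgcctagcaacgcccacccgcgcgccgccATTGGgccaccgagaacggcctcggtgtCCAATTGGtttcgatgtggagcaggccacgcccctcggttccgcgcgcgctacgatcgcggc
*Hmgcs1* held 3 CCAAT boxes on the opposite strand, *Insig1* and *Lss* 1 each on the opposite strand and *Cyp51* 1 on its own strand. A match of letters is a description of the window and not evidence of binding.

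**Figure D3:**
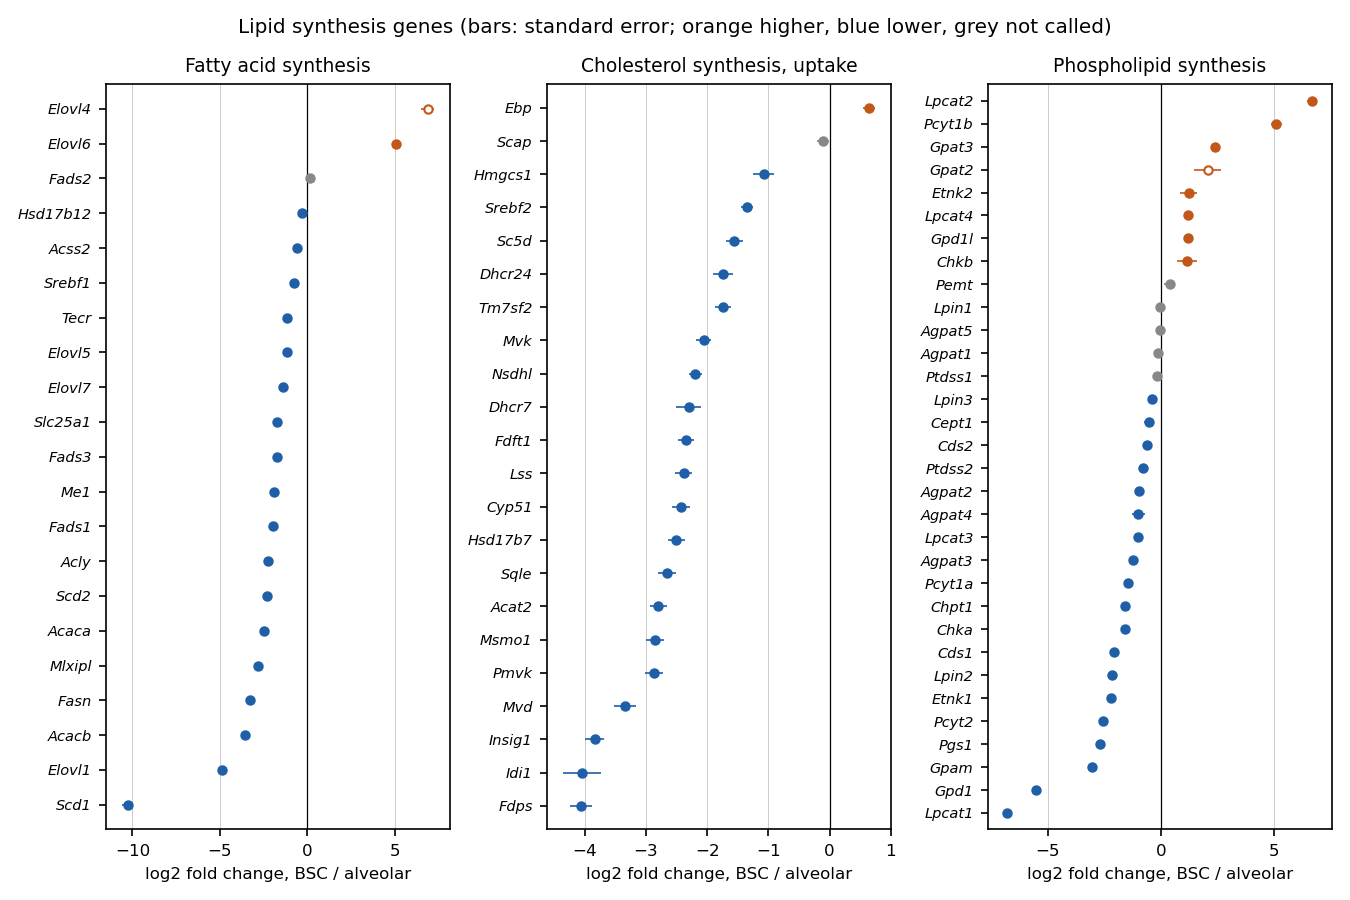
Log2 fold changes of the reported lipid synthesis genes between BSCs and alveolar cells, with standard errors as bars; orange genes were higher in BSCs, blue genes lower and grey genes not called, and open circles mark genes with 9 reads or fewer in the lower group. *Scd1* lies farthest to the left among fatty acid genes, and the cholesterol genes form a nearly unbroken run left of 0.

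Phospholipid synthesis followed the same direction with more exceptions. Of 32 genes, 19 were lower and 8 higher in BSCs (list median -0.69); with library size alone these counts were 15 and 13, and 5 of the 8 higher genes were more abundant in non-basal cells. *Lpcat1*, the acyltransferase that makes the dipalmitoyl phosphatidylcholine of surfactant, was at 6.89, 6.73 and 6.26 RPKM in the BSC libraries and 785, 668 and 723 RPKM in the alveolar libraries (-6.77 ± 0.16, adjusted p = 1.46e-15). Its relative *Lpcat2* had the opposite pattern, at 29.7, 30.5 and 31.4 RPKM in the BSC libraries and 0.2203, 0.394 and 0.288 RPKM in the alveolar libraries (6.66 ± 0.21, adjusted p = 1.81e-14). *Pgs1*, needed for phosphatidylglycerol, and *Gpam*, the first acyltransferase of glycerolipid synthesis, were at 19.6 ± 1.44 against 128 ± 4.31 RPKM and 8.35 ± 0.498 against 69.7 ± 5.41 RPKM (SD, n = 3). The genes of choline-phosphate activation were split, with *Pcyt1a* at 11.6 ± 0.374 against 31.3 ± 3.26 RPKM and *Pcyt1b* at 2.702 ± 0.354 against 0.0759 ± 0.03296 RPKM. The non-basal mean of *Pcyt1b* was 8.37 RPKM.

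Fat breakdown and the organelles of lipid storage also differed. Of 18 genes of peroxisomal lipid oxidation, 11 were lower in BSCs and 3 higher (list median -1.09); with library size alone, 10 and 7, and non-basal cells had more of 2 of the 3 higher genes. *Acoxl*, an acyl-CoA oxidase-like gene, was at 0.0397, 0.02896 and 0.0296 RPKM in the BSC libraries and 211, 188 and 198 RPKM in the alveolar libraries (-12.47 ± 0.39, adjusted p = 1.88e-14). *Cat*, the peroxide-degrading catalase, was at 63.9 ± 2.02 against 379.5 ± 16.3 RPKM (-2.57 ± 0.10, adjusted p = 4.19e-13). Of 22 genes of mitochondrial fatty acid oxidation, 13 were lower and 4 higher (list median -0.41), but with library size alone both counts were 9, and non-basal cells had more of 3 of the 4 higher genes. *Acsl1*, which activates long chain fatty acids, was the main exception at 76.7, 68.3 and 66.7 RPKM in the BSC libraries and 7.75, 7.804 and 6.64 RPKM in the alveolar libraries (3.25 ± 0.13, adjusted p = 4.08e-13). Its non-basal mean was higher still, at 221.5 RPKM. Among 30 lysosome and lamellar body genes, 22 were lower in BSCs (list median -0.82). The lipid transporter *Abca3* was at 16.9 ± 0.292 against 373 ± 16.03 RPKM and the sterol-binding protein *Npc2* at 25.8 ± 0.825 against 1253 ± 71.6 RPKM, and the protease *Ctsh*, which processes surfactant proteins, was at 67.1 ± 1.71 against 726 ± 19.6 RPKM (SD, n = 3). The higher lysosomal genes included *Psap*, *Ctsl*, *Ctss*, *Ctsd* and *Tfeb*, with log2 fold changes between 0.27 ± 0.09 and 1.41 ± 0.11. *Ctsd* was not called without BSC replicate 1 (adjusted p = 0.103) or without alveolar replicate 2 (adjusted p = 0.061). Exons of *Ctsd* and *Ctsl* overlap those of other genes, and their counts are uncertain to that extent.

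Central carbon metabolism showed no common direction. Of 22 genes of glycolysis, 8 were higher and 10 lower, with a median of -0.02, and 5 were higher without BSC replicate 1, BSC replicate 2, alveolar replicate 1 or alveolar replicate 2. With library size alone the split turned to 12 and 7. Among the hexose kinases, *Hk1* was at 48.4 ± 3.201 against 14.5 ± 1.17 RPKM (1.74 ± 0.10, adjusted p = 6.12e-11), *Hk2* at 17.1 ± 3.46 against 14.5 ± 1.25 RPKM, not called, and *Hkdc1* at 0.0161 ± 0.00782 against 18.9 ± 1.54 RPKM (ratio 1167, 95% interval 535 to 3183, adjusted p = 2.56e-14). The glucose transporter gene *Slc2a1* was at 34.2, 38.7 and 39.1 RPKM in the BSC libraries and 10.3, 8.94 and 10.8 RPKM in the alveolar libraries (1.90 ± 0.11, adjusted p = 7.88e-11). The monocarboxylate transporter gene *Slc16a1*, which carries lactate, was at 0.341, 0.537 and 0.529 RPKM in the BSC libraries and 40.97, 43.3 and 44.3 RPKM in the alveolar libraries (-6.51 ± 0.26, adjusted p = 2.96e-13). For the lactate dehydrogenase subunits, *Ldhb* was at 5.44 ± 0.507 against 113 ± 10.2 RPKM and *Ldha* at 279 ± 19.7 against 235 ± 10.3 RPKM (SD, n = 3) (0.25 ± 0.10, adjusted p = 0.032). The call of *Ldha* was lost without any one of BSC replicates 1 and 2 or alveolar replicates 1 and 2, with an adjusted p of 0.064 to 0.124. *Gapdh*, *Pgk1* and *Pgam1* have many processed copies in the genome and their values are uncertain. Of 27 genes of the TCA cycle and pyruvate entry, 12 were lower and 7 higher (list median -0.14), and with library size alone the split turned to 6 and 15. Without alveolar replicate 2, 4 were higher. Non-basal cells had more of 3 of the 7 higher genes.

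Amino acid, redox and retinoid genes went both ways. Of 19 genes of serine, one-carbon and glutamine metabolism, 10 were higher and 6 lower (list median 0.30). *Glul*, the glutamine synthetase, was at 386, 390.3 and 393 RPKM in the BSC libraries and 53.1, 74.02 and 78.99 RPKM in the alveolar libraries (2.50 ± 0.15, adjusted p = 1.03e-10). *Psat1* and *Phgdh*, enzymes of serine synthesis, were at 30.8 ± 0.721 against 3.25 ± 0.252 RPKM (3.24 ± 0.19, adjusted p = 6.70e-11) and 4.16 ± 0.262 against 0.838 ± 0.198 RPKM (2.31 ± 0.23, adjusted p = 1.11e-07). Glutathione peroxidases were divided between the populations. *Gpx2*, the gastrointestinal form, was at 248, 197 and 177 RPKM in the BSC libraries and 13.6, 12.2 and 10.6 RPKM in the alveolar libraries (4.09 ± 0.18, adjusted p = 1.88e-12). *Gpx3*, the plasma form, was at 0.392, 0.308 and 0.408 RPKM in the BSC libraries and 301, 193 and 176 RPKM in the alveolar libraries, and its EpCAM-negative mean was 2049 RPKM. The catalytic subunit of glutamate-cysteine ligase, *Gclc*, was at 91.2 ± 1.496 against 224 ± 6.07 RPKM and its modifier subunit, *Gclm*, at 80.3 ± 4.32 against 9.84 ± 0.673 RPKM (SD, n = 3), so the subunits differed in opposite directions, with log2 fold changes of -1.30 ± 0.12 and 3.03 ± 0.09. Of 20 retinoid genes, 10 were higher (list median 0.68), among them the retinaldehyde dehydrogenase *Aldh1a1* at 760.0, 641 and 547 RPKM in the BSC libraries and 81.9, 69.6 and 64.3 RPKM in the alveolar libraries (3.17 ± 0.19, adjusted p = 9.90e-11) and the receptor *Rarg* at 75.2 ± 2.39 against 23.05 ± 0.628 RPKM (1.71 ± 0.12, adjusted p = 7.59e-10). In the pentose phosphate and glutathione list, 8 of 20 genes were lower and 7 higher (list median -0.12), and with library size alone 6 and 10. Non-basal cells had more than BSCs for 6 of its 7 higher genes, among them *Gpx2* with a non-basal mean of 273.6 RPKM. Of the higher retinoid genes, 3 were more abundant in non-basal cells, among them *Aldh1a1* with a non-basal mean of 3354 RPKM. Of the 6 lower retinoid genes, 4 were more abundant in EpCAM-negative cells.

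Adhesion genes separated the populations by type of junction. Desmosomes, which tie the keratin filaments of neighbouring cells together, had 11 tested genes of 16, of which 10 were higher in BSCs (list median 3.46) and *Pkp2* was lower. *Dsp*, the plakin of every desmosome, was at 121, 136 and 131 RPKM in the BSC libraries and 10.8, 11.96 and 12.5 RPKM in the alveolar libraries (3.46 ± 0.12, adjusted p = 1.01e-13). Desmosomal cadherins differed to unequal extents. *Dsg2*, found in all desmosome-bearing tissues, was at 30.3 ± 1.19 against 3.05 ± 0.663 RPKM (SD, n = 3) (3.31 ± 0.17, adjusted p = 1.06e-11). *Dsc2*, a widely expressed desmocollin, was at 52.8, 51.4 and 56.2 RPKM in the BSC libraries and 0.0399, 0.0208 and 0.0229 RPKM in the alveolar libraries (ratio 1896, 95% interval 741 to 6960.2, adjusted p = 5.30e-15). *Dsg3*, a cadherin of stratified epithelia, was at 12.8, 14.5 and 16.4 RPKM in the BSC libraries and 0, 0.0224 and 0 RPKM in the alveolar libraries (ratio 1928, 95% interval 346 to 76147, adjusted p = 6.53e-12). *Pkp1*, a plaque protein, was at 74.5 ± 3.63 against 0.0346 ± 0.0234 RPKM, and *Perp*, a desmosomal membrane protein, was at 408 ± 16.3 against 22.2 ± 1.56 RPKM (SD, n = 3) (4.20 ± 0.18, adjusted p = 9.29e-13). *Pkp2*, the plakophilin of simple epithelia, was at 11.95, 12.8 and 13.1 RPKM in the BSC libraries and 20.3, 21.01 and 22.4 RPKM in the alveolar libraries (-0.75 ± 0.09, adjusted p = 6.03e-07).

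Hemidesmosomes, which join keratin filaments to the basement membrane, had 9 genes, of which 6 were higher and 1 lower (list median 1.78). The list holds *Itgb4*, which encodes the β4 subunit used in the alveolar gate, and without it 5 of 8 genes were higher and the median was 1.21. None of the higher genes was more abundant in non-basal cells. *Col17a1*, a transmembrane collagen, was at 128, 137 and 140.3 RPKM in the BSC libraries and 0.714, 0.559 and 0.614 RPKM in the alveolar libraries (7.74 ± 0.22, adjusted p = 5.46e-15). *Plec*, the linker to keratin, was at 47.9 ± 4.52 against 7.01 ± 0.516 RPKM (2.77 ± 0.13, adjusted p = 3.16e-12), and *Itga6*, the partner of the β4 subunit, was at 79.9 ± 4.304 against 7.92 ± 0.638 RPKM (3.33 ± 0.10, adjusted p = 8.61e-15). Chains of laminin-332, to which they bind, differed less. *Lamb3* was at 127, 139 and 139 RPKM in the BSC libraries and 86.9, 89.2 and 85.7 RPKM in the alveolar libraries (0.63 ± 0.16, adjusted p = 0.0024). *Lama3* was at 11.04 ± 0.677 against 8.54 ± 0.597 RPKM (SD, n = 3), which was not called although the groups did not overlap (0.37 ± 0.16, adjusted p = 0.052). *Lama3* was called as higher under 7 alternatives, with adjusted p from 9.8e-05 in the 6 libraries with the replicate block to 0.046 without the filter, among them voom (0.011), DESeq2 (0.028) and library size alone (log2 fold change 0.78), and it was at -0.081 with the gene length correction.

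Tight junction genes went both ways, with 9 of 23 higher and 8 lower (list median -0.03; with library size alone, 14 and 6), and 6 of the higher genes more abundant in non-basal cells. *Cldn18*, the claudin of the alveolar barrier, had no read in any BSC library and was at 313, 294 and 324 RPKM in the alveolar libraries (at least 11482-fold lower, adjusted p = 5.88e-14). *Cldn3* was at 91.4, 95.98 and 80.9 RPKM in the BSC libraries and 347, 326 and 328 RPKM in the alveolar libraries (-1.90 ± 0.16, adjusted p = 1.08e-08). *Cldn4* had the opposite pattern, at 106, 153 and 144 RPKM in the BSC libraries and 8.17, 10.4 and 6.02 RPKM in the alveolar libraries (4.03 ± 0.28, adjusted p = 5.68e-10). The scaffold gene *Tjp1* was not called, at 25.1 ± 1.36 against 26.1 ± 2.36 RPKM (SD, n = 3). *Cdh1*, the E-cadherin of adherens junctions, was at 111, 114 and 111 RPKM in the BSC libraries and 111, 104.7 and 118 RPKM in the alveolar libraries and the groups overlapped (0.01 ± 0.09, adjusted p = 0.92). P-cadherin, *Cdh3*, was at 22.1 ± 1.98 against 0.201 ± 0.0459 RPKM (6.76 ± 0.30, adjusted p = 1.43e-12), and the kidney-type cadherin *Cdh16* was at 0.0283 ± 0.0131 against 34.5 ± 2.13 RPKM (-10.15 ± 0.24, adjusted p = 1.46e-15).

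**Figure D4:**
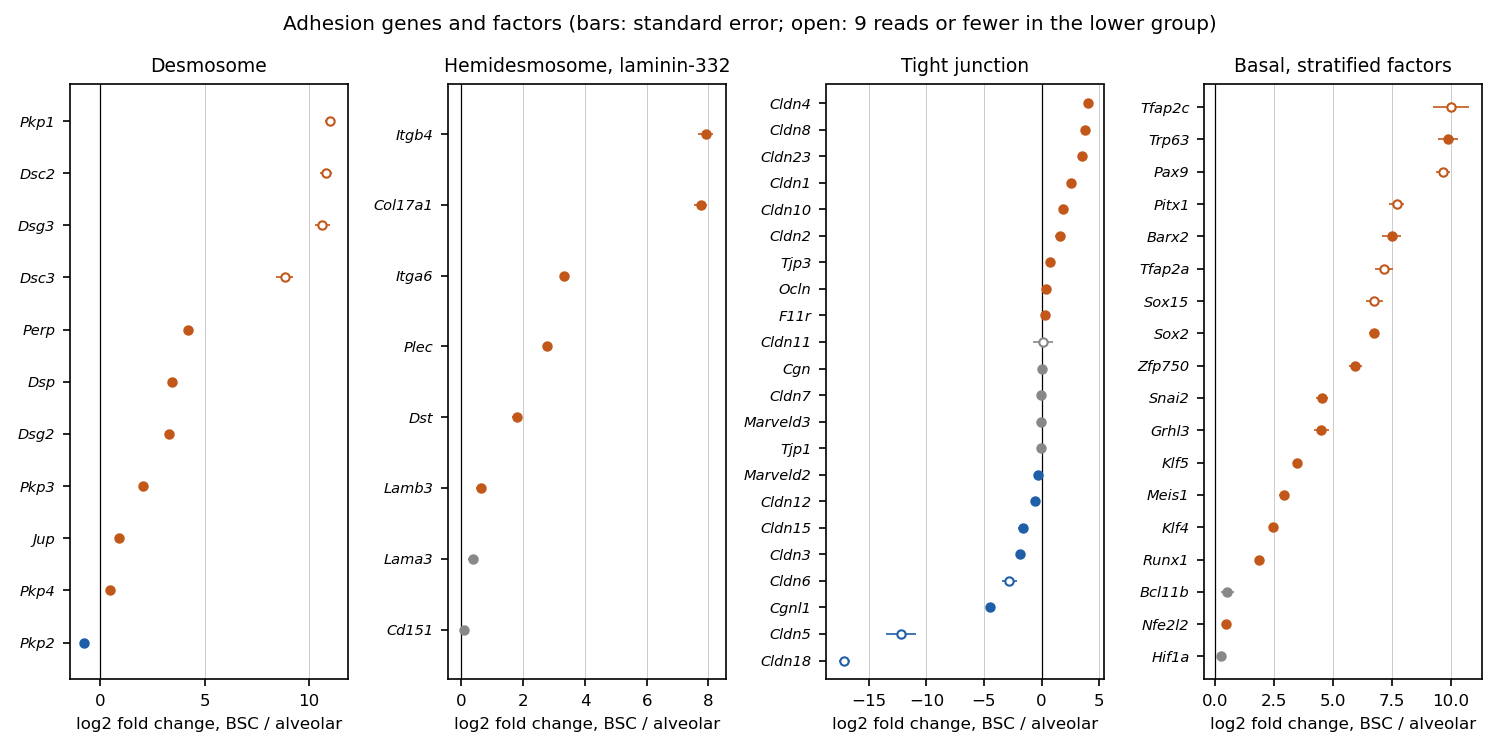
Log2 fold changes between BSCs and alveolar cells for the reported desmosome, hemidesmosome and tight junction genes and for transcription factors of basal and stratified epithelium, with standard errors as bars; orange genes were higher in BSCs, blue lower and grey not called. Open circles mark genes with 9 reads or fewer in the lower group, whose fitted value depends on the prior count. Desmosome and factor genes lie right of 0 with few exceptions, while claudins spread from *Cldn18* on the left to *Cldn4* on the right.

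Of 16 keratins, 13 were higher in BSCs and none lower. Their median was 8.24, or 4.70 with the 2 keratins that had no alveolar read set at the bound of 3 reads per library. *Krt15* was at 2414 ± 179 against 0.791 ± 0.375 RPKM, *Krt17* at 587 ± 86.01 against 0.144 ± 0.0343 RPKM and *Krt14* at 85.5 ± 13.7 against 0.0739 ± 0.128 RPKM (SD, n = 3). Keratins of simple epithelium were present in both populations, with *Krt8* at 383, 438 and 360.1 RPKM in the BSC libraries and 132, 144 and 147 RPKM in the alveolar libraries (1.48 ± 0.10, adjusted p = 4.96e-10) and *Krt18* at 281 ± 25.5 against 144 ± 8.83 RPKM (0.97 ± 0.13, adjusted p = 3.38e-06). *Krt4* and *Krt13*, which mark suprabasal cells of stratified epithelium, were at 418 ± 25.5 against 0.172 ± 0.155 RPKM and 163 ± 2.39 against 0.753 ± 1.05 RPKM. The near-identical *Krt6a* and *Krt6b* can share reads and are uncertain.

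Of 25 basement membrane genes, 15 were lower in BSCs and 8 higher (list median -2.38). *Col4a1*, a chain of the ubiquitous collagen IV, was at 0.598, 0.886 and 1.09 RPKM in the BSC libraries and 91.7, 97.4 and 96.2 RPKM in the alveolar libraries (-6.79 ± 0.35, adjusted p = 1.32e-11), with 209 RPKM in EpCAM-negative cells. Of the 15 lower genes, 13 were more abundant in EpCAM-negative cells than in alveolar cells. The exceptions were *Col4a3* and *Col4a4*, chains of the alveolar collagen IV network, at 0.517 ± 0.0828 against 7.89 ± 1.77 RPKM and 0.556 ± 0.133 against 6.57 ± 0.411 RPKM. The higher genes were more abundant in BSCs than in non-basal cells without exception, and included *Col7a1*, the anchoring fibril collagen, at 27.7 ± 1.88 against 2.71 ± 0.204 RPKM (3.36 ± 0.18, adjusted p = 2.58e-11), *Agrn*, a heparan sulphate proteoglycan, at 97.8 ± 4.54 against 20.7 ± 1.65 RPKM (2.24 ± 0.16, adjusted p = 7.39e-10), and *Col4a6* at 26.1 ± 2.302 against 1.34 ± 0.2502 RPKM (4.28 ± 0.17, adjusted p = 2.62e-13). Integrins were balanced, with 7 higher and 7 lower (list median -0.22) of 18, and 5 of the 7 lower ones were more abundant in EpCAM-negative cells. *Itga9*, a tenascin receptor subunit, was not among these 5, at 4.14 ± 0.112 against 66.95 ± 2.78 RPKM (-4.01 ± 0.13, adjusted p = 1.77e-14).

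Surfactant genes and secretory pathway genes of the endoplasmic reticulum were more abundant in alveolar cells. All 11 surfactant protein and processing genes were lower in BSCs, none of them more abundant in EpCAM-negative cells, and surfactant protein genes took 15.8% to 17.3% of alveolar reads against 0.0110% to 0.0168% of BSC reads. *Sftpb* was at 3.46 ± 0.896 against 13261 ± 819 RPKM, *Sftpa1* at 9.35 ± 3.67 against 10068 ± 567 RPKM and *Sftpd* at 60.2 ± 9.596 against 4733 ± 261 RPKM (SD, n = 3). *Napsa*, an aspartic protease that cleaves the precursors, was at 0.212, 0.336 and 0.267 RPKM in the BSC libraries and 1990.0, 1719 and 1897 RPKM in the alveolar libraries (-12.72 ± 0.41, adjusted p = 2.29e-14). *Lamp3*, a lamellar body membrane protein, was at 0.179, 0.141 and 0.0338 RPKM in the BSC libraries and 1239, 1211 and 1170.4 RPKM in the alveolar libraries (-13.30 ± 0.44, adjusted p = 3.02e-14). Of 35 genes of translocation and folding in the endoplasmic reticulum, 26 were lower in BSCs and 1 higher (list median -0.64), and 8 of the lower genes were lower by at least 2-fold. With library size alone, 19 were lower and 4 higher, and 12 of the 26 lower genes were more abundant in EpCAM-negative cells, as was the 1 higher gene in non-basal cells. *Creb3l1*, a membrane-bound factor of the secretory pathway, showed the largest difference of the list, at 2.47, 2.09 and 1.59 RPKM in the BSC libraries and 34.6, 33.4 and 33.2 RPKM in the alveolar libraries (-4.04 ± 0.16, adjusted p = 2.45e-13). The chaperone *Hspa5* was at 318 ± 23.5 against 425 ± 29.8 RPKM (-0.42 ± 0.14, adjusted p = 0.017), but was not called with library size alone (log2 fold change -0.01), without BSC replicate 1 (adjusted p = 0.068) or without alveolar replicate 3 (adjusted p = 0.063).

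The machinery of exocytosis was divided, with 11 of 29 genes higher and 13 lower (list median -0.34; with library size alone, 13 and 10). *Syt7*, a calcium sensor of lysosome exocytosis, was at 0.188, 0.238 and 0.1702 RPKM in the BSC libraries and 12.5, 11.9 and 12.1 RPKM in the alveolar libraries (-5.93 ± 0.16, adjusted p = 4.96e-15). *Vamp8*, a vesicle SNARE, was at 176 ± 5.13 against 502 ± 12.7 RPKM (-1.51 ± 0.10, adjusted p = 4.05e-10). *Anxa1*, a phospholipid-binding annexin, was at 1095, 1257 and 1189.6 RPKM in the BSC libraries and 107, 119 and 104.6 RPKM in the alveolar libraries (3.42 ± 0.13, adjusted p = 3.14e-13), and the synaptotagmin gene *Syt8* was at 12.7 ± 1.31 against 0.0447 ± 0.0775 RPKM (ratio 306, 95% interval 84.7 to 2532, adjusted p = 7.62e-12).

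Defence proteins formed separate sets, with 8 of 20 higher and 10 lower (list median -2.08), but 7 of the 8 higher genes were more abundant in non-basal cells. *Defb1*, a β-defensin, was the exception, at 112, 117 and 113 RPKM in the BSC libraries with no read in any alveolar library (at least 372-fold higher, adjusted p = 9.93e-11). *Chil1*, a chitinase-like lectin, was at 1.23, 0.932 and 0.886 RPKM in the BSC libraries and 3777, 3301 and 3803 RPKM in the alveolar libraries (-11.80 ± 0.32, adjusted p = 3.70e-15). *Lcn2*, which binds bacterial siderophores, was at 0.367, 0.389 and 0.497 RPKM in the BSC libraries and 929, 805 and 786 RPKM in the alveolar libraries (-10.95 ± 0.54, adjusted p = 6.07e-12). *Lyz2* was at 416 ± 159 against 40893 ± 3962 RPKM and its near-identical neighbour *Lyz1* at 3.53 ± 3.11 against 3229 ± 777 RPKM (SD, n = 3), and reads can be shared between them.

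Of 27 chemokines and cytokines, 13 were lower and 8 higher in BSCs (list median -0.62), and 8 of the lower genes were more abundant in EpCAM-negative cells. Among the other lower genes were *Csf2*, the growth factor of alveolar macrophages, at 17.9, 17.5 and 18.7 RPKM in the alveolar libraries and 0, 0 and 0.0273 RPKM in the BSC libraries (ratio 1984, 95% interval 355 to 78507, adjusted p = 1.40e-13), and *Il33*, an alarmin, at 0.0437, 0.0849 and 0.0868 RPKM in the BSC libraries and 179, 162 and 188 RPKM in the alveolar libraries (-11.21 ± 0.36, adjusted p = 2.16e-14). *Cx3cl1*, the membrane-tethered fractalkine, was higher in BSCs, at 62.6, 61.5 and 60.6 RPKM in the BSC libraries and 9.05, 9.69 and 9.05 RPKM in the alveolar libraries (2.73 ± 0.15, adjusted p = 2.77e-11). *Il1rn*, the interleukin-1 receptor antagonist, was at 5.53 ± 0.665 against 0.197 ± 0.0718 RPKM, and *Ccl20* at 10.01 ± 1.73 against 0.862 ± 0.2800 RPKM (SD, n = 3) (3.54 ± 0.36, adjusted p = 1.34e-07). Of 29 proteases and inhibitors, 7 were higher and 14 lower (list median -0.46), but 12 each with library size alone, and 9 of the 14 lower genes were more abundant in EpCAM-negative cells and 3 of the 7 higher ones in non-basal cells. *Serpinb5*, maspin, was at 72.1 ± 3.35 against 0.0496 ± 0.0252 RPKM (ratio 1485, 95% interval 579.8 to 5450.0, adjusted p = 4.17e-14), and the urokinase receptor gene *Plaur* was at 78.1 ± 22.7 against 4.72 ± 1.04 RPKM (4.05 ± 0.34, adjusted p = 8.89e-09).

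Water and ion transport genes differed in both directions. *Aqp3*, a basolateral water and glycerol channel, was at 1118, 1022 and 1029.9 RPKM in the BSC libraries and 0.6498, 0.731 and 0.687 RPKM in the alveolar libraries (10.57 ± 0.28, adjusted p = 2.96e-15). *Aqp4* was at 79.04, 69.8 and 75.3 RPKM in the BSC libraries and 0.104, 0.199 and 0.119 RPKM in the alveolar libraries (9.04 ± 0.32, adjusted p = 8.17e-14). *Aqp5*, an apical water channel, was at 431, 401 and 386 RPKM in the BSC libraries and 365, 339 and 357 RPKM in the alveolar libraries, which was not called although every BSC library lay above the alveolar libraries (0.20 ± 0.15, adjusted p = 0.26). It was called as higher with library size alone (adjusted p = 0.0012), in the 6 libraries alone (0.0087), with the replicate block there (0.016) and with the gene length correction (0.018). The anion channel genes *Slc26a9* and *Cftr* were at 0.234 ± 0.01404 against 106 ± 5.74 RPKM (-8.82 ± 0.18, adjusted p = 1.97e-16) and 0.277 ± 0.0475 against 16.7 ± 1.31 RPKM (-5.91 ± 0.15, adjusted p = 2.76e-15), while the calcium-activated chloride channel gene *Ano1* was at 31.7 ± 3.004 against 8.21 ± 0.803 RPKM (1.95 ± 0.13, adjusted p = 4.11e-10). Of the subunits of the epithelial sodium channel, *Scnn1a* was not called, at 78.4 ± 6.12 against 76.6 ± 2.57 RPKM, and *Scnn1b* was at 0.638 ± 0.0906 against 9.44 ± 0.6001 RPKM (SD, n = 3) (-3.88 ± 0.22, adjusted p = 3.54e-11). Of 24 genes, 10 were higher and 12 lower (list median -0.26; with library size alone, 12 and 11), and 6 of the higher genes were more abundant in non-basal cells. *Ano1* was among these, with a non-basal mean of 79.5 RPKM.

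Signalling pathways differed in which ligand and receptor of a family was present. In the EGF family, which drives epithelial growth through ErbB receptors, 10 of 17 genes were higher in BSCs and 2 lower (list median 0.76). *Egfr*, the receptor, was at 27.7, 30.8 and 31.9 RPKM in the BSC libraries and 3.08, 2.34 and 2.92 RPKM in the alveolar libraries (3.44 ± 0.13, adjusted p = 2.42e-13). Among ligands, *Hbegf* was at 183, 201 and 204 RPKM in the BSC libraries and 27.5, 34.2 and 34.8 RPKM in the alveolar libraries (2.61 ± 0.16, adjusted p = 9.56e-11), *Nrg1* at 8.33 ± 2.67 against 0.313 ± 0.0632 RPKM (4.73 ± 0.34, adjusted p = 9.80e-10) and *Nrg2* at 18.3 ± 1.59 against 0.603 ± 0.265 RPKM (4.90 ± 0.24, adjusted p = 5.07e-12), whereas *Areg*, amphiregulin, was at 3.700, 6.57 and 8.95 RPKM in the BSC libraries and 83.7, 93.1 and 91.5 RPKM in the alveolar libraries (-3.80 ± 0.27, adjusted p = 8.20e-10). The feedback inhibitors *Lrig1* and *Lrig3* were at 61.3 ± 3.52 against 10.2 ± 0.189 RPKM and 26.2 ± 0.882 against 3.27 ± 0.117 RPKM (SD, n = 3). Of the 10 higher genes, 4 were more abundant in non-basal cells.

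In the FGF family, 13 of 20 genes were lower in BSCs and 4 higher (list median -0.97), and 9 of the 13 lower genes, among them the stromal ligands *Fgf7* and *Fgf10*, were more abundant in EpCAM-negative cells. The receptors were split. *Fgfr3* was at 117, 123 and 123 RPKM in the BSC libraries and 24.6, 22.3 and 17.5 RPKM in the alveolar libraries (2.50 ± 0.13, adjusted p = 1.76e-11). *Fgfr2* was at 102, 99.4 and 101.3 RPKM in the BSC libraries and 191, 177 and 179 RPKM in the alveolar libraries (-0.85 ± 0.10, adjusted p = 1.28e-06). *Etv5*, an ETS factor that FGF signalling induces, was at 1.79, 1.67 and 2.01 RPKM in the BSC libraries and 193, 166 and 199 RPKM in the alveolar libraries (-6.67 ± 0.16, adjusted p = 1.46e-15), and its mean in EpCAM-negative cells was 3.06 RPKM. *Dusp6*, a phosphatase that FGF signalling also induces, went the other way, at 143, 216 and 194 RPKM in the BSC libraries and 18.1, 16.4 and 20.7 RPKM in the alveolar libraries (3.32 ± 0.17, adjusted p = 1.50e-11), as did *Etv4* at 1.67 ± 0.337 against 0.211 ± 0.1304 RPKM (SD, n = 3).

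The Wnt list was balanced, with 19 of 42 genes higher and 17 lower (list median 0.22; with library size alone, 22 and 11). Several ligands and the R-spondin receptors *Lgr6* and *Lgr4* stood on the BSC side. *Wnt4* was at 91.2, 97.7 and 98.2 RPKM in the BSC libraries and 1.06, 0.7702 and 0.502 RPKM in the alveolar libraries (6.93 ± 0.22, adjusted p = 1.81e-14). *Wnt10a* was at 18.7 ± 1.31 against 0.0469 ± 0.0812 RPKM (ratio 394, 95% interval 135 to 1911, adjusted p = 6.84e-11), *Wnt7b* at 24.3 ± 4.396 against 2.83 ± 0.883 RPKM (3.11 ± 0.17, adjusted p = 2.41e-11) and *Porcn*, which acylates Wnt proteins, at 87.8 ± 5.396 against 8.24 ± 1.56 RPKM (3.41 ± 0.17, adjusted p = 8.38e-12). *Lgr6* was at 64.1, 61.95 and 61.4 RPKM in the BSC libraries and 0.243, 0.203 and 0.223 RPKM in the alveolar libraries (8.12 ± 0.23, adjusted p = 5.30e-15), and *Lgr4* at 20.1 ± 1.47 against 1.87 ± 0.111 RPKM (3.43 ± 0.10, adjusted p = 1.12e-14). Genes known as feedback targets of canonical Wnt signalling differed unequally, and were picked here after their values were seen. *Nkd1* was at 0.332, 0.279 and 0.241 RPKM in the BSC libraries and 77.5, 76.2 and 77.6 RPKM in the alveolar libraries (-8.08 ± 0.49, adjusted p = 9.85e-11). *Axin2* was at 0.0868, 0.1297 and 0.106 RPKM in the BSC libraries and 11.7, 9.74 and 11.4 RPKM in the alveolar libraries (-6.65 ± 0.31, adjusted p = 3.71e-12). *Notum*, whose exons overlap those of another gene, was at 0.0467 ± 0.0295 against 19.2 ± 3.15 RPKM (SD, n = 3). *Rnf43* was at 10.4 ± 0.107 against 13.2 ± 0.942 RPKM (-0.34 ± 0.11, adjusted p = 0.0091), but at 0.068 on the log2 scale with library size alone, and *Znrf3* was not called, at 6.66 ± 0.9204 against 5.89 ± 0.204 RPKM (0.18 ± 0.12, adjusted p = 0.22). EpCAM-negative cells had more than alveolar cells for 12 of the 17 lower genes, including *Axin2* at 14.8 RPKM and *Notum* at 24.6 RPKM, but not *Nkd1* at 18.4 RPKM.

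**Figure D5:**
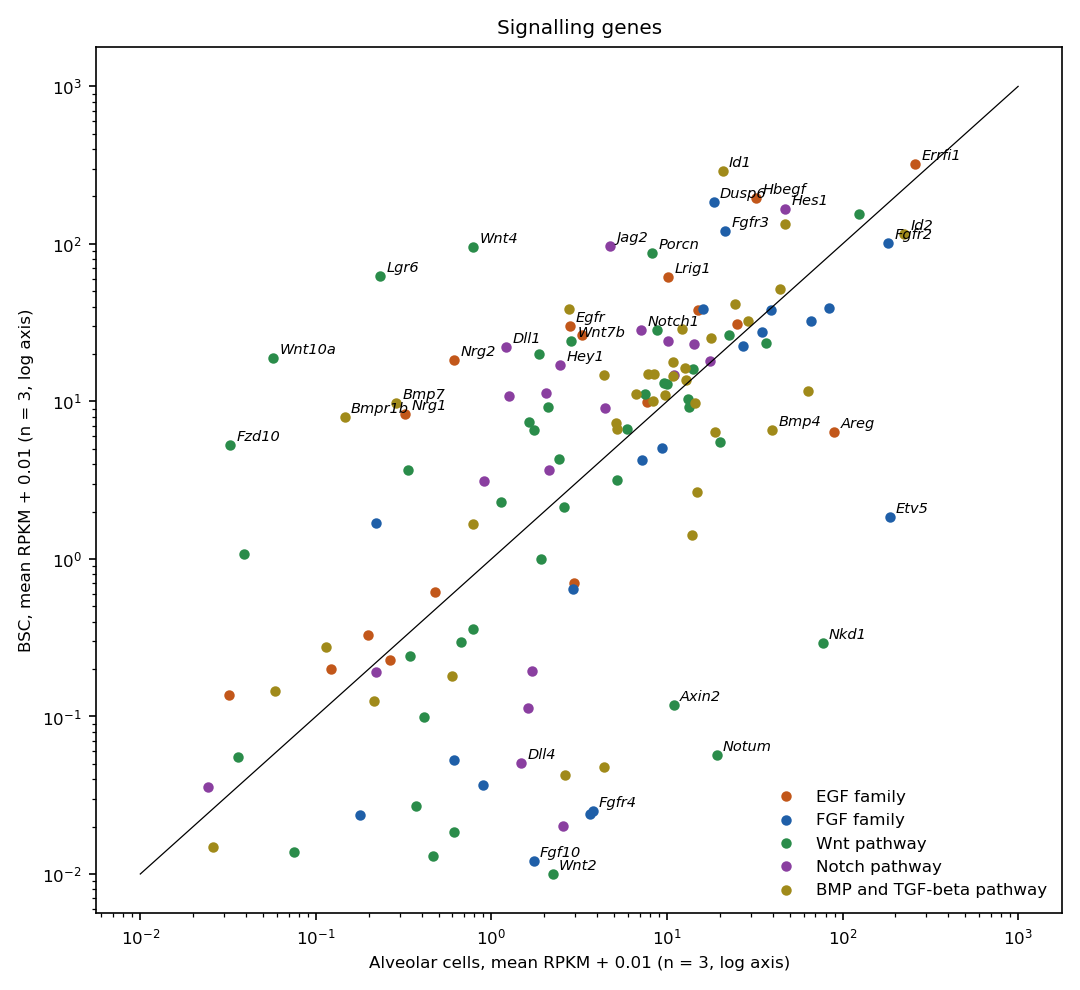
Mean RPKM of genes of 5 signalling lists in BSCs (vertical axis) and alveolar cells (horizontal axis), 3 libraries each, on log axes after adding 0.01; the line marks equal levels. *Wnt4*, *Lgr6*, *Wnt10a* and *Jag2* lie far above the line, and *Etv5*, *Nkd1*, *Axin2* and *Notum* far below it.

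In the Notch pathway, through which neighbouring airway cells select basal and secretory states, 13 of 20 genes were higher in BSCs and 4 lower (list median 0.91), and all 4 lower genes, such as the endothelial ligand *Dll4*, were more abundant in EpCAM-negative cells. The ligand *Jag2* was at 86.99, 98.9 and 104 RPKM in the BSC libraries and 4.56, 4.86 and 4.78 RPKM in the alveolar libraries (4.35 ± 0.26, adjusted p = 8.32e-11), and *Dll1* was at 18.3, 22.6 and 25.7 RPKM in the BSC libraries and 1.05, 1.34 and 1.21 RPKM in the alveolar libraries (4.21 ± 0.32, adjusted p = 2.31e-09). The receptor *Notch1* was at 28.5 ± 0.676 against 7.14 ± 0.206 RPKM (2.00 ± 0.12, adjusted p = 1.00e-10). The target genes *Hes1* and *Hey1* were at 166 ± 81.2 against 47.04 ± 2.74 RPKM and 17.00 ± 2.04 against 2.45 ± 0.383 RPKM (SD, n = 3). Of the 13 higher genes, 5 were more abundant in non-basal cells, among them *Hes1* and *Hey1* with non-basal means of 234 and 21.7 RPKM.

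In the BMP and TGF-beta pathway, 19 of 37 genes were higher and 10 lower (list median 0.38), 6 of the latter with more in EpCAM-negative cells. Inhibitors of differentiation, which BMP signalling induces, went in both directions, with *Id1* at 277, 296 and 298 RPKM in the BSC libraries and 20.4, 23.6 and 18.1 RPKM in the alveolar libraries (3.81 ± 0.22, adjusted p = 5.99e-11), *Id4* at 38.5 ± 2.39 against 2.74 ± 0.0865 RPKM (3.81 ± 0.17, adjusted p = 2.33e-12) and *Id2* at 115 ± 5.06 against 224 ± 15.6 RPKM (-0.96 ± 0.11, adjusted p = 7.49e-07). *Bmp7* and the receptor *Bmpr1b* were at 9.69 ± 0.533 against 0.277 ± 0.307 RPKM and 7.900 ± 0.958 against 0.136 ± 0.0608 RPKM, and *Bmp4*, whose EpCAM-negative mean was 59.9 RPKM, was at 6.59 ± 1.23 against 39.8 ± 2.96 RPKM (SD, n = 3). Of 20 Hippo pathway genes, 11 were higher and 4 lower (list median 0.33), 3 of the latter with more in EpCAM-negative cells. *Ajuba*, a scaffold that restrains the LATS kinases, was at 46.6, 63.1 and 66.9 RPKM in the BSC libraries and 4.503, 4.36 and 3.29 RPKM in the alveolar libraries (3.86 ± 0.24, adjusted p = 1.98e-10), whereas the effectors *Yap1* and *Wwtr1* differed by little, at 37.7 ± 1.72 against 32.9 ± 0.752 RPKM (0.20 ± 0.08, adjusted p = 0.035) and 13.9 ± 0.842 against 18.7 ± 0.478 RPKM (-0.43 ± 0.09, adjusted p = 5.40e-04). Without any one of BSC replicates 2 and 3 or alveolar replicates 1 and 2, *Yap1* had an adjusted p of 0.080 to 0.105, and with library size alone *Wwtr1* was at -0.03 on the log2 scale and was not called.

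Guidance and growth factor receptors were found on both sides. Of 35 semaphorin, ephrin and receptor genes, 17 were higher and 14 lower (list median 0.30), 6 of the latter with more in EpCAM-negative cells. *Ephb2*, an ephrin receptor, was at 33.1, 30.1 and 31.02 RPKM in the BSC libraries and 0.184, 0.0963 and 0.127 RPKM in the alveolar libraries (7.83 ± 0.21, adjusted p = 3.70e-15). *Nrp1*, a semaphorin and VEGF co-receptor, was at 0.216, 0.233 and 0.229 RPKM in the BSC libraries and 95.2, 98.5 and 89.05 RPKM in the alveolar libraries (-8.70 ± 0.38, adjusted p = 1.08e-12), with 76.8 RPKM in EpCAM-negative cells. Of 11 neurotrophin and GDNF receptor and ligand genes, 3 were higher and 5 lower (list median -0.95). The list holds *Ngfr*, on which BSCs were sorted, and without it 2 of 10 were higher and the median was -2.002, and EpCAM-negative cells had more of 3 of the lower ones. *Gfra1*, the GDNF co-receptor, was at 37.2, 38.9 and 43.9 RPKM in the BSC libraries and 0.683, 0.599 and 0.344 RPKM in the alveolar libraries (6.18 ± 0.27, adjusted p = 1.43e-12), while *Ret*, its signalling partner, was at 0.199 ± 0.0152 against 5.72 ± 0.319 RPKM (SD, n = 3) (-4.84 ± 0.15, adjusted p = 1.69e-14). Of the 13 hedgehog genes, 5 were higher and 5 lower (list median -0.12; with library size alone, 7 and 4), 3 of the latter with more in EpCAM-negative cells. *Shh*, a ligand of distal epithelium whose exons overlap those of another gene, was at 0.0881 ± 0.0277 against 7.63 ± 0.0295 RPKM (-6.40 ± 0.27, adjusted p = 6.99e-13).

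Transcription factors of basal and stratified epithelium were almost all higher in BSCs than in alveolar cells. Of 19 factors of basal and stratified epithelium, 17 were higher in BSCs and none lower, and the list median was 4.52. *Trp63*, which maintains basal cells, was at 86.8, 102 and 104 RPKM in the BSC libraries and 0.131, 0.0912 and 0.0833 RPKM in the alveolar libraries (9.88 ± 0.42, adjusted p = 8.05e-13). *Sox2*, a factor of proximal airway identity, was at 78.9, 88.5 and 86.5 RPKM in the BSC libraries and 0.897, 0.936 and 0.534 RPKM in the alveolar libraries (6.73 ± 0.23, adjusted p = 4.31e-14). *Pax9*, a foregut factor, was at 42.5, 55.5 and 54.8 RPKM in the BSC libraries and 0, 0.107 and 0.0784 RPKM in the alveolar libraries (ratio 843, 95% interval 361 to 2597, adjusted p = 1.38e-14). *Klf5*, a factor of epithelial barriers, was at 204 ± 32.8 against 18.5 ± 1.34 RPKM (SD, n = 3), and *Snai2*, an E-box repressor, was at 18.5 ± 2.704 against 0.797 ± 0.1702 RPKM (4.52 ± 0.27, adjusted p = 8.96e-11). Not all of these factors set BSCs apart from the non-basal cells, which had more of 3 of the 17 higher genes. The non-basal means of *Sox2*, *Pax9* and *Klf5* were 71.2, 41.6 and 164 RPKM, whereas that of *Snai2* was 1.66 RPKM. *Hif1a* and *Bcl11b* were not called, but both were called as higher with library size alone and in the fit of the 6 libraries alone (adjusted p = 0.0011 and 0.0053).

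Distal lung factors were mixed, with 13 of 25 lower and 9 higher (list median -0.37), and 10 and 11 with library size alone. Non-basal cells had more of 5 of the 9 higher genes. *Nkx2-1*, the lung and thyroid factor, was detected in both populations, at 47.6, 51.8 and 52.1 RPKM in the BSC libraries and 203, 182 and 187 RPKM in the alveolar libraries (-1.92 ± 0.11, adjusted p = 2.92e-11). *Cebpa*, needed for type 2 cell maturation, was at 44.1, 46.8 and 49.96 RPKM in the BSC libraries and 223, 199 and 246 RPKM in the alveolar libraries (-2.25 ± 0.12, adjusted p = 1.34e-11). The forkhead pair *Foxa1* and *Foxa2* stood on opposite sides. *Foxa1* was at 154, 159.7 and 156 RPKM in the BSC libraries and 34.5, 35.1 and 37.1 RPKM in the alveolar libraries (2.14 ± 0.11, adjusted p = 6.38e-12), and *Foxa2* was at 0.548, 0.572 and 0.544 RPKM in the BSC libraries and 38.03, 34.6 and 41.3 RPKM in the alveolar libraries (-6.09 ± 0.12, adjusted p = 1.52e-16). *Gata6* was at 4.37 ± 0.377 against 25.96 ± 2.64 RPKM and *Elf5*, an ETS factor of distal epithelium, at 1.41 ± 0.455 against 35.6 ± 1.52 RPKM (SD, n = 3). *Tbx4* and *Tcf21* had no reads in BSCs, and their alveolar means of 5.87 ± 1.702 and 13.8 ± 2.11 RPKM (SD, n = 3) were 8.36% and 8.27% of those in EpCAM-negative cells.

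Factors of axial and regional position divided between BSCs and alveolar cells. Of 22 Hox genes, 16 were tested, 9 were higher in BSCs and 5 lower. Their median was 2.23, or 1.77 with the 3 genes that had no read in the lower group set at the bound of 3 reads per library. Non-basal cells had more of 4 of the higher genes. The higher genes carried numbers from 1 to 5, with *Hoxb4* at 5.55, 5.36 and 5.02 RPKM in the BSC libraries and 0.721, 0.932 and 0.865 RPKM in the alveolar libraries (2.66 ± 0.33, adjusted p = 1.68e-06) and *Hoxa4* at 3.28 ± 0.1202 against 0.463 ± 0.124 RPKM (2.80 ± 0.35, adjusted p = 1.54e-06). The EpCAM-negative lung cells had more of both than BSCs, with means of 11.9 RPKM for *Hoxb4* and 7.60 RPKM for *Hoxa4*. The lower genes carried numbers from 6 to 8, all were at mean levels under 1 RPKM, and all were more abundant in EpCAM-negative cells; 3 were called without BSC replicate 2, BSC replicate 3 or alveolar replicate 1, and 2 with library size alone. *Hoxa5* and *Hoxb5* were not called, but *Hoxa5* was called as lower in the 6 libraries alone (adjusted p = 0.0064), with the replicate block there (0.0041) and without alveolar replicate 3 (0.041). Among 22 other regional factors, 10 were higher and 11 lower (list median 0.18), and 5 of the higher genes had more in non-basal cells and 6 of the lower ones in EpCAM-negative cells. *Isl1*, a LIM homeobox factor, was at 16.2, 14.2 and 14.4 RPKM in the BSC libraries and 0, 0.0364 and 0 RPKM in the alveolar libraries (ratio 1212, 95% interval 217 to 47865, adjusted p = 1.13e-12). In non-basal cells its mean was 19.6 RPKM. The Iroquois genes stood on the alveolar side, with *Irx1* at 22.1, 23.1 and 24.5 RPKM in the BSC libraries and 145, 157 and 159 RPKM in the alveolar libraries (-2.73 ± 0.12, adjusted p = 9.70e-13), *Irx3* at 18.9 ± 1.03 against 95.3 ± 5.42 RPKM, *Irx2* at 46.6 ± 5.16 against 106 ± 0.997 RPKM and *Irx5* at 20.4 ± 1.68 against 41.7 ± 0.862 RPKM (SD, n = 3). In CD24hi and CD24lo lung airway cells, the means were 13.6 and 18.8 RPKM for *Irx1* and 57.9 and 34.2 RPKM for *Irx3*.

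Immediate early genes, which cells induce within minutes of stress and of handling, were abundant in both populations, and most were more so in BSCs. Of 27 immediate early and heat shock genes, 18 were higher and 6 lower (list median 1.40), 3 of the latter with more in EpCAM-negative cells. By at least 2-fold, 17 were higher and 4 lower, against 16.1% and 22.4% of all tested genes. Heat shock genes went both ways. *Hspa1a* and *Dnaja1* had BSC means of 78.4 and 8.88 RPKM and alveolar means of 232 and 22.5 RPKM. *Dnajb1* and *Hsph1* had BSC means of 536 and 26.6 RPKM and alveolar means of 126 and 12.3 RPKM. *Fos* was at 2850.2, 3442 and 3416 RPKM in the BSC libraries and 764, 734 and 907 RPKM in the alveolar libraries (2.01 ± 0.15, adjusted p = 2.59e-09), and *Egr1* at 1555 ± 217 against 504 ± 42.4 RPKM (1.62 ± 0.17, adjusted p = 1.98e-07). EpCAM-negative lung cells had *Fos* and *Egr1* means of 2383 and 1862 RPKM, and non-basal tracheal cells 2103 and 563 RPKM. In the lung airway cells these means were 2162 and 926 RPKM for CD24hi and 1406 and 911 RPKM for CD24lo. The part of tissue digestion in these levels was not tested. *Dusp6*, *Hbegf*, *Areg*, *Klf4*, *Id1* and *Il6* are also known to respond to stress and handling, and the part of handling in their values was not tested.

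Among genes at 10 CPM or more in the higher group, the 10 largest rises were *Ugt2b34*, *Defb1*, *Krt75*, *Fads2b*, *Akr1c18*, *Eya4*, *Tmprss11a*, *Clca3b*, *Ces2f* and *Cwh43*. In alveolar libraries, 9 of the 10 had no read and *Clca3b* had 1. Their order is that of the fitted fold changes, which depend on the prior count where a group has no read. The bounds of the 9 genes were 106-fold to 862-fold, so their place against genes with a measured difference, such as *Krt5* or *Aqp3*, is not established. *Ugt2b34*, a glucuronosyltransferase of drug and steroid clearance, was at 85.3, 74.1 and 78.3 RPKM in the BSC libraries (at least 862-fold higher, adjusted p = 1.07e-14). *Akr1c18*, a steroid dehydrogenase, was at 57.6, 48.5 and 40.3 RPKM (at least 204-fold higher, adjusted p = 2.73e-12), but its non-basal mean was 266 RPKM. The non-basal mean also exceeded that of BSCs for *Eya4*, and was lower for the other 8 genes. The 10 largest falls were *Sftpc*, *Cldn18*, *Slc34a2*, *Sparcl1*, *Hc*, *C6*, *Mfap4*, *Prmt8*, *Cxcl15* and *Tspan11*. Of these, *Cldn18*, *Sparcl1*, *C6*, *Mfap4* and *Prmt8* had no read in BSCs, and their places depend on the prior count in the same way. *Slc34a2*, the phosphate transporter of type 2 cells, was at 0.0545, 0.0596 and 0.0406 RPKM in the BSC libraries and 3121, 2691 and 3042 RPKM in the alveolar libraries (-15.76 ± 0.34, adjusted p = 5.81e-16). *Hc* and *C6*, complement components C5 and C6, were at 871, 902 and 972 RPKM and 76.9, 76.1 and 77.2 RPKM in the alveolar libraries, and BSC libraries had 3 to 5 reads of the first and none of the second. *Sparcl1* and *Mfap4* reached 1589 and 1424 RPKM in EpCAM-negative cells, against 105.1 ± 22.5 and 127 ± 26.97 RPKM (SD, n = 3) in alveolar cells.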

How the data were processed

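RNA-seq libraries of 6 sorted mouse populations were available, 3 for each. The authors used Rsubread and featureCounts on the mm10 genome and deposited raw read counts, with the gene length, for 27179 Entrez genes. A table of the whole series repeating these counts was not used, and strandedness of the counting is not given in the sources used here. Each row named a gene. RefSeq's GRCm38.p6 table gave symbols for 25275 identifiers, and exon overlaps came from GENCODE M21.

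After a filter of more than 0.2 CPM in 3 or more libraries, 17989 genes were normalised by TMM and fitted with edgeR 4.0.16 (glmQLFit, glmQLFTest) in R 4.3.3, using all 18 libraries with a mean for each population. Calls used an adjusted p under 0.05. The standard error is the absolute log2 fold change over the square root of F. Where the lower group had no read, the fold was set against 3 reads per library and is given as "at least". With 1 to 9 reads in the lower group, the ratio of summed, scaled reads is given with its exact 95% interval, which covers counting error only. The 3 libraries of a population came from separate mice.

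The 974 genes of 49 lists and the cell type markers were chosen with earlier results of these data known. Of these, 948 were tested. Genes named in the text belong to these lists or to the 10 largest rises and 10 largest falls with an adjusted p under 0.05, no overlap and at least 10 CPM in the higher group; *Lars2* and *mt-Rnr2* were named after their values were seen, and *Epcam* because it was sorted on. DNA repair and cell cycle sets were left out, and the values of some list genes are not reported here. Promoter windows were RefSeq's, and 250 bases upstream of each start were searched on both strands.

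The workflow was tested on simulated data: of 200 genes changed 2-fold among 17625, 120 were called, with 3 unchanged genes called. Alternatives were DESeq2 1.42.0, voom in limma 3.58.1, scaling by RLE or by library size only, other filters, the 6 libraries alone with and without a replicate block, a gene length correction, thinning of the tracheal libraries to lung depth, a 2-fold rule and leaving out each library. No pair of replicates was alike within counting noise (chi-square per degree of freedom at least 5.68).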

Additional observations from a re-analysis of the deposited data

How the results depend on the processing

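At an adjusted p under 0.05, 11895 genes were called, 5485 higher and 6410 lower in BSCs. Adding the requirement of a 2-fold difference left 6916, of which 2891 were higher and 4025 lower. Leaving out 1 library at a time gave 5066 to 5225 higher and 5785 to 6073 lower genes. Replicate numbers do not pair BSC with alveolar libraries, which came from different mice, and the deviations of libraries with the same number had correlations of 0.0548, 0.00536 and -0.00411. In a fit of the 6 libraries, the replicate block gave 6183 higher and 6114 lower genes, against 6219 and 6123 without the block.

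Of 3519 values under alternatives, for 220 of the genes named in the text, 3434 kept their direction and call. Of the called genes among these, *Rnf43* changed sign with library size alone (0.068), and all other changes of sign were in genes that were not called with TMM. With library size alone, *Epcam* was at 0.33, *Scap* at 0.30, *Tjp1* at 0.35 and *Hoxb5* at 0.38. With the gene length correction, *Epcam* was at 0.026, *Cdh1* at -0.13, *Hk2* at -0.012, *Hoxb5* at 0.10, *Lama3* at -0.081, *Znrf3* at -0.115 and *Scnn1a* at -0.017. *Hoxb5* was also at 0.0105 with RLE factors, 0.0122 with DESeq2, 0.037 in the 6 libraries alone and 0.036 with the replicate block there. *Tjp1* was at 0.0024 in the 6 libraries alone and 0.0052 with the replicate block, and *Cdh1* at -0.011 with a minimum of 1 CPM and -0.040 with the tracheal libraries thinned. Without 1 library at a time, *Cdh1* ran from -0.031 to 0.055, *Hoxb5* from -0.22 to 0.10, *Pgk1* from -0.12 to 0.18, *Scnn1a* from -0.00040 to 0.097 and *Tjp1* from -0.0939 to 0.0223. The cause of these changes was not tested.

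Alveolar libraries held fewer reads, so that genes with few alveolar reads have wide intervals or only a bound. Scaling and gene length moved the centre of all genes, and the calls of genes with small differences depended on that choice. Surfactant, cholesterol, desmosome and keratin lists kept their direction under every alternative tried.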
